A study of Felis catus with 12 samples.

Results

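The 44 genes described here carry a heart cell's use of glucose: its uptake and phosphorylation, glycolysis, the making and breaking of lactate, glycogen turnover, the pyruvate dehydrogenase complex, the TCA cycle and the malate-aspartate shuttle. They were chosen by name, 4 for uptake and phosphorylation, 13 for glycolysis, 2 for lactate dehydrogenase, 5 for glycogen, 5 for the pyruvate dehydrogenase complex, 12 for the TCA cycle and 3 for the shuttle. Of these, 43 had a row of that name in the table of 30785 genes, PKM being the one without, and 41 were tested because 3 or more of the 10 libraries with a known outcome held 10 reads or more, as were 8715 genes in all. HK2 and ALDOC were below it.

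The libraries came from the left ventricular free wall of 12 client-owned domestic cats, from a cohort in which most had been euthanised, and their ages ranged from young to old. The study grouped them by the recorded reason for death or euthanasia, 6 with congestive heart failure (HF), 3 with arterial thromboembolism (ATE) and 1 without a known cardiac death, and asked which features of the myocardium go with outcome, fibrosis and age. For the libraries labelled as cats 22 and 29 no outcome was assigned, since the study does not list these cats among those sequenced. No cat had an experimental treatment or an engineered allele, the heart tissue was taken after death, and the outcome groups rest on that clinical record and not on one cardiac diagnosis. RNA was read directly on nanopores, so 1 read stands for 1 RNA molecule, with 4 libraries on each of 3 flow cells. Flow cell A held cats 11, 23 and 30 with cat 31, flow cell B cats 10, 15, 35 and 36, and flow cell C cats 22, 29, 37 and 38. Each cat gave 1 library, so the spread within a group holds differences between cats and between libraries together.

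Healthy adult heart muscle draws most of its energy from fatty acids and burns glucose and lactate beside them. Glucose enters through GLUT4 and GLUT1, is split to pyruvate in the cytosol, and pyruvate is either oxidised in the mitochondrion by the pyruvate dehydrogenase complex and the TCA cycle or reduced to lactate. Several steps exist as a pair of genes, one the form of adult striated muscle and the other a form used widely by other or growing cells, and fetal and stressed hearts are known for leaning towards the latter.

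The values are the reads of a gene divided by 1 size factor per library, called scaled reads below. Libraries held 789257 to 2263110 reads on genes, the most in cat 11. The members took 2.5% to 4.23% of a library's reads, 570440 reads in all. Of the 14 cardiomyocyte markers, 13 had a row and together they took 10.9% to 16.8% of the reads. Fibroblast and matrix markers took 0.0271% to 0.327%, endothelial markers 0.0254% to 0.0941% and immune markers 0.00369% to 0.048%. Adipocyte markers never exceeded 0.0115% and red blood cell markers 0.00451%, and LYZ and SLC4A1 had no read in any library. In such bulk samples fewer cells of a type and less RNA per cell cannot be told apart.

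The libraries of cats 11 and 31, both from HF cats and both on flow cell A, stood apart in these genes, and several results below are also given without them. The members took 2.5% of the reads in cat 11 and 2.98% in cat 31, and 3.67% to 4.23% in the other libraries. Cat 11 had the lowest value of all 12 libraries in 22 of the 41 tested members, and cats 30 and 31 in 5 each. Over all genes tested, cat 11 was lowest in 13.46%, and this share was not taken for the other cats. At the other end, cat 29 was highest in 13 members, cat 38 in 11 and cat 31 in 4. The heat map of the members by library shows the low columns of cats 11 and 31, with a few genes running the other way.

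**Figure D1:**
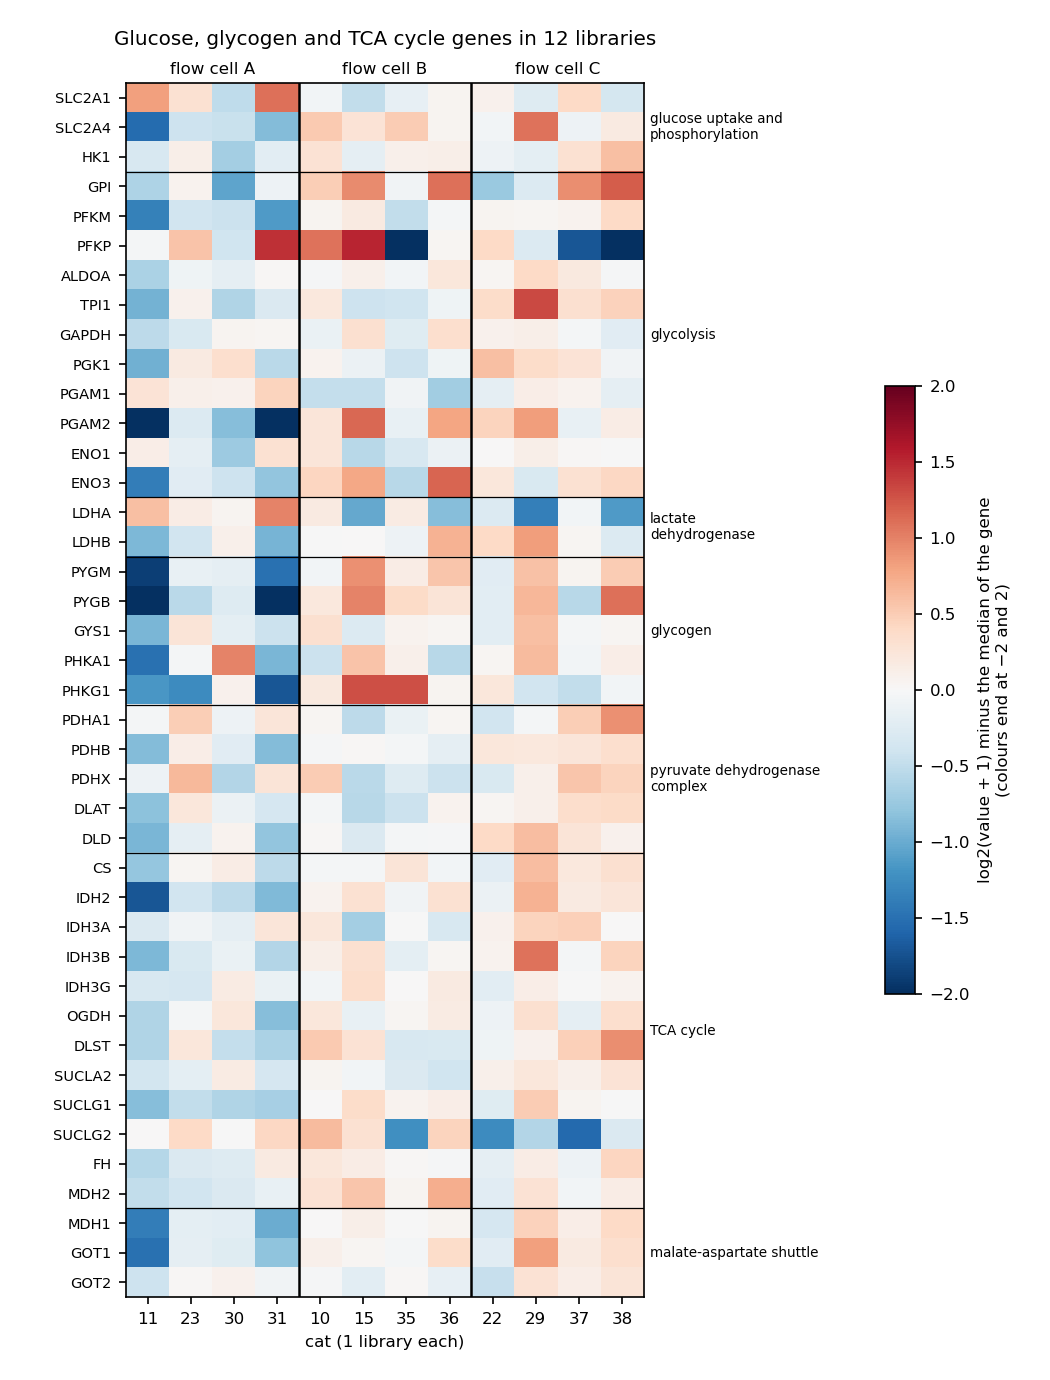
Scaled reads of the 41 tested members (rows, grouped by role) in the 12 libraries (columns, by flow cell), as log2(value + 1) minus the median of the gene over the 12 libraries. Blue is below and red above the median, with colours ending at −2 and 2; cat 11 is the lowest library in 22 rows, and in cats 11 and 31 LDHA, PGAM1 and SLC2A1 are above their medians while PGAM2, PYGM and PYGB are far below.

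The spread over the 12 libraries differed widely among the members. The coefficient of variation (SD over mean) had a median of 30.8% over the tested members and of 40.0% over all genes tested. The median number of reads was 393 for the members and 27.5 for all genes tested. IDH3G, a subunit of isocitrate dehydrogenase, varied least at 14.7%, from 246 to 399 scaled reads. GOT2, ALDOA, SUCLA2, GAPDH and FH also varied by under 20%. At the wide end stood PFKP at 85.2%, PHKG1 at 68.3%, PGAM2 at 58.1% and PYGB at 57.5%. In all 41 the spread was more than 2 times what counting reads alone would give, by 2.12 to 24.1 times, GYS1 being the nearest to counting error.

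Some of the steady members are central enzymes. GAPDH, which oxidises glyceraldehyde phosphate in glycolysis, lay between 10621 and 19354 scaled reads. SUCLA2, the ATP-forming subunit of succinyl-CoA synthetase, lay between 395 and 629, and FH, fumarase, between 480 and 955. None of the 3 was called in a comparison below. Mammalian genomes hold near-identical copies of GAPDH, LDHA, LDHB, PGAM1 and ENO1, and how reads that fit several copies were assigned was not examined, so their levels are uncertain by that much.

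Between flow cell A and the other libraries, 8 of the 41 tested members were lower and 0 higher at an adjusted p under 0.05 (limma on log2(value + 1), two-sided, Benjamini-Hochberg over 8715 genes, 4 against 8 libraries). Over all genes tested, 3.5% were called lower and 1.62% higher. The median difference of the members was −0.41 on the log2 scale, with 34 of 41 below 0, beside 0.03 over all genes. On the recovered reads edgeR called 6 members lower and 0 higher, and DESeq2 13 lower and 1 higher (LDHA). Over all 8715 genes edgeR called 430 and DESeq2 829, both directions together. The 8 called by limma were the insulin-responsive glucose carrier SLC2A4, the muscle glycolytic enzymes PFKM and PGAM2, the glycogen phosphorylases PYGM and PYGB, the TCA cycle genes IDH2 and SUCLG1, and the shuttle enzyme GOT1. Flow cell A held 3 of the 6 HF cats and 1 of the 3 ATE cats among its 4 libraries. The other 8 libraries held 3 HF and 2 ATE cats, so outcome was not balanced. The library without a known cardiac death and those without an assigned outcome were all among these 8. Within the HF cats alone the members' median was −0.48, with 34 of 41 below 0. All 8 genes had an unadjusted limma p under 0.05 there. They had been picked from a comparison that includes these libraries, so this is not a separate test of them. The flow cell and the tissue of the single cats on it cannot be told apart.

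SLC2A4 encodes GLUT4, the carrier that insulin and contraction bring to the cell surface. On flow cell A it had 44.4 scaled reads in cat 11, 98.1 in cat 23, 95.1 in cat 30 and 71 in cat 31, and elsewhere 122 at the lowest, 153 at the median and 278 at the highest. The groups did not overlap, and the log2 difference was −1.12 ± 0.25 (SE; 95% interval −1.66 to −0.59; limma adjusted p = 0.0191). SLC2A1, the basal carrier GLUT1, went from 20.2 in cat 30 to 63.8 in cat 31 on flow cell A and from 20.4 to 38.6 elsewhere, a difference of 0.53 ± 0.29 that did not pass (limma adjusted p = 0.299).

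PFKM is the muscle form of phosphofructokinase, the committed step of glycolysis. Its values on flow cell A were 357 in cat 11, 694 in cat 23, 678 in cat 30 and 413 in cat 31, against 646 to 1202 with a median of 943 in the other 8. Cats 23 and 30 lay within the range of the others and cats 11 and 31 below it, with a log2 difference of −0.85 ± 0.21 (limma adjusted p = 0.0281).

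PGAM2, the muscle form of phosphoglycerate mutase, showed the largest difference of any tested member. It stood at 107 scaled reads in cat 11, 563 in cat 23, 375 in cat 30 and 145 in cat 31, and at 608, 861 and 1507 as the lowest, median and highest of the others. All 4 libraries of flow cell A were below all 8 others, by −1.91 ± 0.37 on the log2 scale (95% interval −2.69 to −1.13; limma adjusted p = 0.0093). PGAM1, the form found outside muscle, was at 286 to 366 on flow cell A and 167 to 295 elsewhere, a difference of 0.46 ± 0.19 with a limma adjusted p of 0.161.

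In the glycogen group 2 of 5 members were called lower, PYGM and PYGB, and the median of the 5 was −1.24. PYGM, muscle glycogen phosphorylase, frees glucose-1-phosphate from glycogen. It had 210 scaled reads in cat 11 and 278 in cat 31, but 702 in cat 23 and 690 in cat 30, where the other libraries had 667 to 1468 with a median of 988. The log2 difference was −1.24 ± 0.31 (limma adjusted p = 0.0293). PYGB, the brain form, which heart also makes, stood at 60.3 in cat 11, 169 in cat 23, 206 in cat 30 and 51 in cat 31, against 167 to 532 with a median of 309, or −1.62 ± 0.37 (limma adjusted p = 0.0201). Thus for both phosphorylases cats 11 and 31 lay below all other libraries. Cats 23 and 30 overlapped flow cells B and C but lay below their median. Without cats 11 and 31 the differences were −0.48 for PYGM and −0.76 for PYGB, neither called. The kinase subunit PHKG1, which switches phosphorylase on, differed by −1.28 ± 0.40 without passing (limma adjusted p = 0.072), and glycogen synthase GYS1 by −0.39 ± 0.24 (limma adjusted p = 0.358).

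In the TCA cycle 11 of 12 members were below 0, with a median of −0.41 and 2 called. IDH2, the mitochondrial NADP-dependent isocitrate dehydrogenase, had 430, 1088, 984 and 765 scaled reads in cats 11, 23, 30 and 31, and 1308 to 2299 with a median of 1643 elsewhere. SUCLG1, the subunit shared by both succinyl-CoA synthetases, had 732, 936, 865 and 835 in the same order and 1111 to 1884 with a median of 1378 elsewhere. Neither overlapped the other libraries, and the log2 differences were −1.08 ± 0.23 for IDH2 and −0.77 ± 0.17 for SUCLG1 (limma adjusted p = 0.0151 and 0.0175). Of the 3 subunits of the NAD-dependent isocitrate dehydrogenase, IDH3A and IDH3G differed by −0.11 and −0.22 and IDH3B by −0.71 (limma adjusted p = 0.816, 0.475 and 0.0777).

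The malate-aspartate shuttle carries the electrons of cytosolic NADH into the mitochondrion, and its cytosolic aminotransferase GOT1 was called lower. GOT1 had 338, 848, 810 and 548 scaled reads in cats 11, 23, 30 and 31 against 824 to 1699 with a median of 1057. Only cat 23 reached the range of the others, and the difference was −0.88 ± 0.24 on the log2 scale (limma adjusted p = 0.0455). Cytosolic MDH1 came close at −0.80 ± 0.23 (limma adjusted p = 0.0548), whereas the mitochondrial GOT2 differed by −0.07 ± 0.18. None of the 5 genes of the pyruvate dehydrogenase complex was called, with differences from −0.58 for DLD to 0.10 for PDHA1.

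Lower in every library of flow cell A were 4 members, SLC2A4, PGAM2, IDH2 and SUCLG1, and 2.51% of all genes tested. In the plot by cat of the 8 called genes the widest gaps are those of cats 11 and 31. Without cat 11 limma called 0 members and 51 of 8715 genes. An unadjusted p under 0.05 was then found in 16 members and in 1186 of 8715 genes. Leaving out cat 31, limma called 1 member (PGAM2) and 129 of 8715 genes. Without both it called 0 members and 0 of 8715 genes, with 5 members and 860 genes in all at an unadjusted p under 0.05. The 8 differences were then −0.41 for GOT1, −0.44 for PFKM, −0.48 for PYGM, −0.65 for IDH2, −0.66 for SUCLG1, −0.74 for SLC2A4, −0.76 for PYGB and −0.97 for PGAM2, all below 0, with limma adjusted p from 0.287 to 0.635. With fewer libraries in the fit, 2 members were called against flow cell B alone (PGAM2 and PYGB). Against flow cell C alone 0 members were called, with 18 members and 1574 of 8715 genes at an unadjusted p under 0.05. Within the HF cats alone, 3 libraries against 3, 0 members were called. There 15 members and 1424 of 8715 genes had an unadjusted p under 0.05. The members' median difference was −0.36 against flow cell B, −0.51 against flow cell C and −0.48 within the HF cats, with 31, 36 and 34 of 41 below 0.

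**Figure D2:**
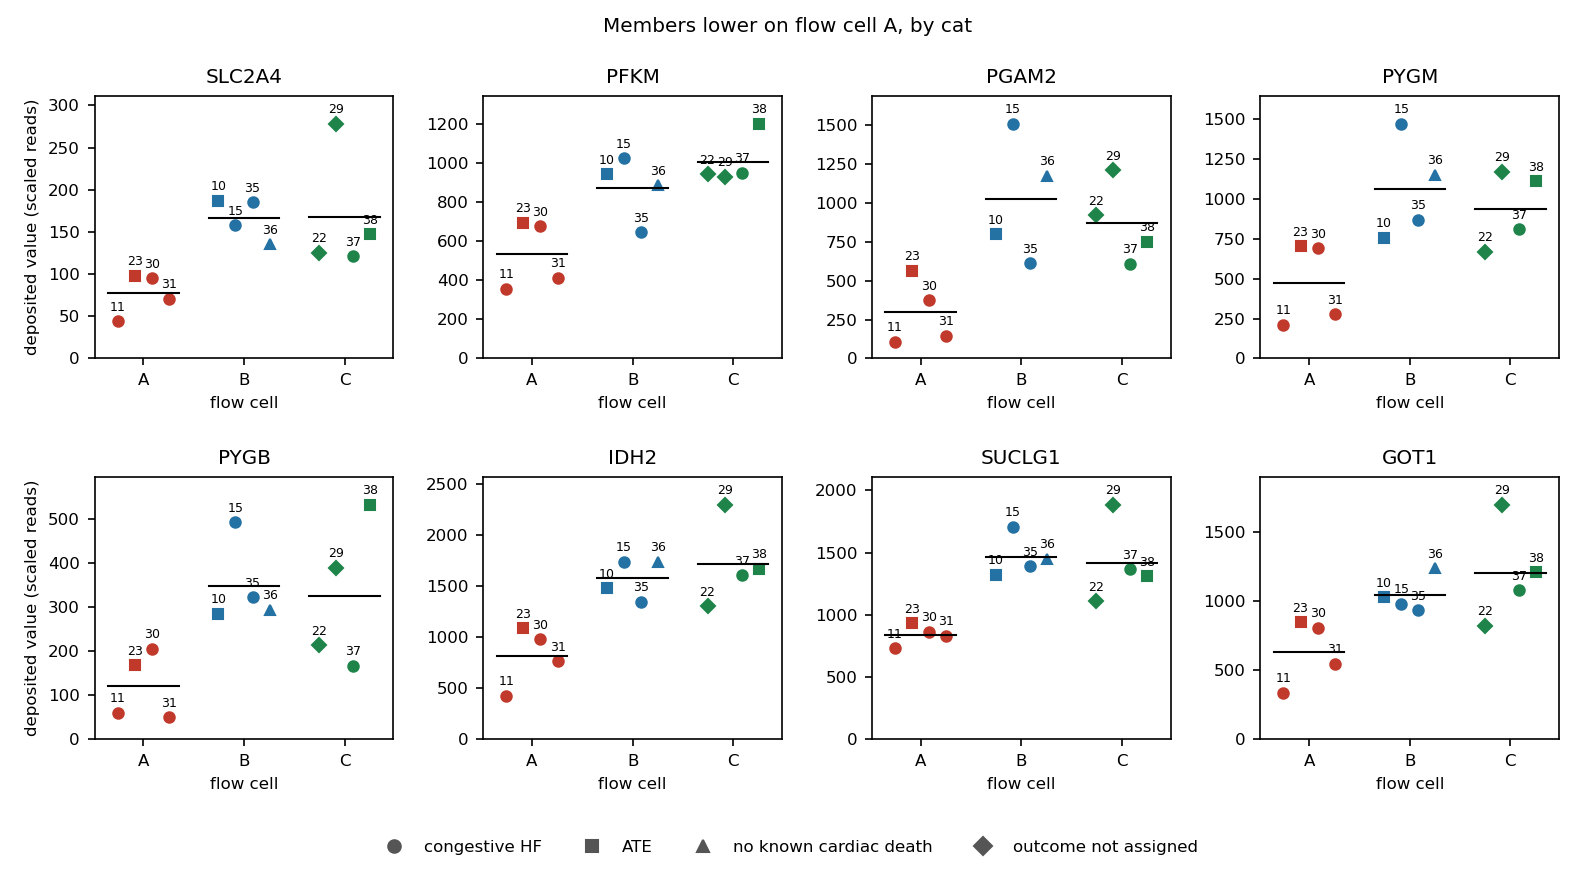
Scaled reads (y axes, from 0) of the 8 members called lower on flow cell A, by flow cell (x axes); each point is the library of 1 cat with its number, its shape the outcome, and the bars are flow cell means. In SLC2A4, PGAM2, IDH2 and SUCLG1 all 4 points of flow cell A lie below all others, and in PFKM, PYGM and PYGB cats 23 and 30, and in GOT1 cat 23, reach into the range of the others.

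Markers of other cells moved in the same comparison. Of the 13 cardiomyocyte markers tested, 6 were called lower, among them the myosin-binding protein gene MYBPC3 by −1.82 and troponin I gene TNNI3 by −1.64. Above 0 without passing were NPPA at 1.38, ACTC1 at 0.59 and TTN at 0.05, and the summed level of the list overlapped, 119132 to 196070 scaled reads on flow cell A and 128421 to 258316 elsewhere. Of the 8 fibroblast and matrix markers 2 were called higher, COL1A1 and COL3A1, with sums of 1256 to 3471 against 359 to 1931. Of the 5 smooth muscle and pericyte markers tested 2 were called higher, TAGLN and CNN1, and the summed levels did not overlap, 443 to 1334 against 129 to 363. TAGLN was at 744 in cat 11 and 724 in cat 31, out of list sums of 1166 and 1334. In the other 2 libraries of flow cell A it was at 188 to 231. ACTA2, PDGFRB and RGS5 of that list differed by 0.36, 0.43 and 0.03 without passing (limma adjusted p = 0.521, 0.618 and 0.972). Endothelial, immune and adipocyte markers had 0 calls, at sums of 482 to 845 against 397 to 1250, 75.8 to 267 against 49 to 544, and 54.5 to 103 against 70.2 to 147, and red blood cell markers were at 1.34 to 19.1 against 0 to 59.9. The part of these markers in the members' differences was not tested.

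Of the other genes of these pathways, 71 were tested and 8 called, 1 higher and 7 lower. The one higher was SLC2A3, the high-affinity carrier GLUT3, at 89.3 scaled reads in both cat 11 and cat 31, 24.2 in cat 23 and 21.9 in cat 30, and 8.82 to 25.8 elsewhere (log2 difference 1.44 ± 0.39, limma adjusted p = 0.0419). Lower were the lysosomal glycogen enzyme GAA (−1.45), the mitochondrial malic enzyme ME3 (−1.05), the liver-type phosphofructokinase PFKL (−1.07), the D-lactate dehydrogenase LDHD (−1.25), the oxoglutarate carrier SLC25A11 (−0.69), the succinate dehydrogenase subunit SDHB (−0.68) and ESRRA (−1.18), a nuclear receptor that drives oxidative genes, with limma adjusted p from 0.0068 to 0.0455. By list these were 3 of 11 other glycolysis and lactate genes, 1 of 16 other glycogen genes, 0 of 8 genes of pyruvate entry, 3 of 16 other TCA cycle and shuttle genes and 1 of 20 regulators. Without cats 11 and 31 limma called 0 of 8715 genes, and so neither these 8 nor the markers above.

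**Figure D3:**
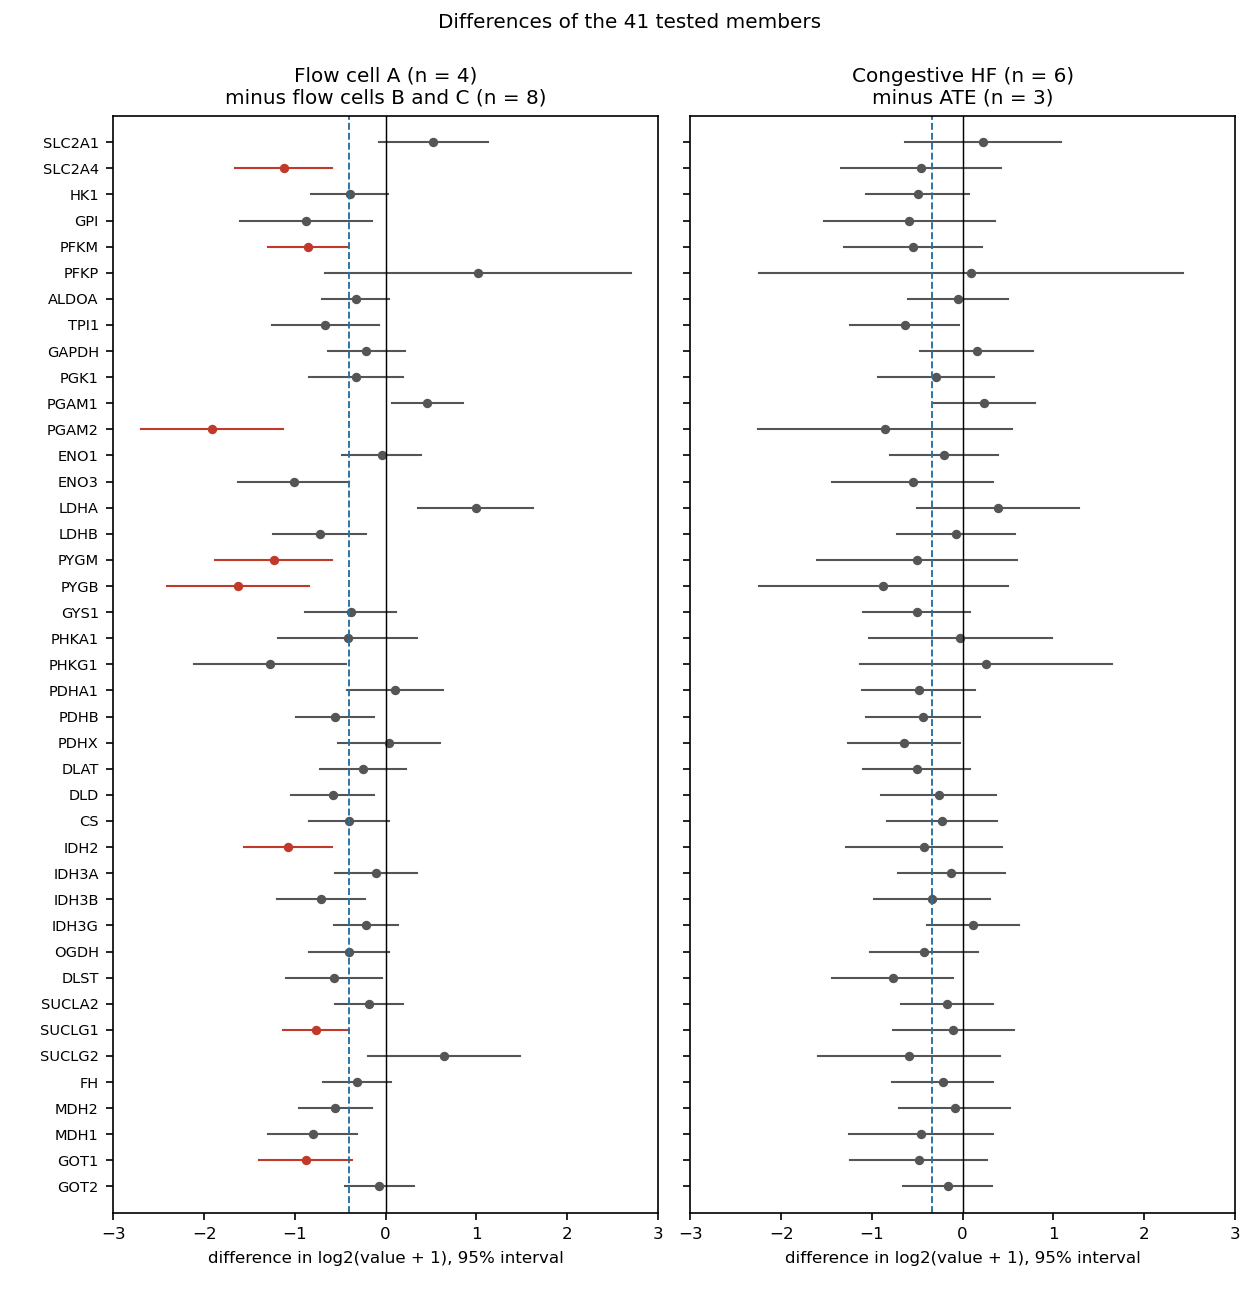
Differences in log2(value + 1) of the 41 tested members with 95% intervals, for flow cell A against the others (left, 4 against 8 libraries) and for congestive HF against ATE (right, 6 against 3). Red marks a limma adjusted p under 0.05, and the dashed line is the median over the members, −0.41 on the left and −0.34 on the right; the 8 red genes are all on the left and below 0.

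For enzymes with 2 genes, the ratio of their reads within a library was taken, which does not depend on the size factor, and tested as the difference of log2(value + 1). The levels of 2 genes were not compared with each other, and each ratio is compared between libraries only. Over 9 pairs and 4 comparisons, 36 tests by two-sided exact permutation, 0 passed an adjusted p of 0.05 and 4 had an unadjusted p under it. With 495 ways to choose 4 of 12 libraries the smallest p is 0.00202, which after adjustment is 0.0727 for a ratio that stands alone, so this design could not call a single ratio between flow cells.

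The ratio of PGAM2 to PGAM1 reached that smallest p. There were 0.328 reads of PGAM2 per read of PGAM1 in cat 11, 1.94 in cat 23, 1.31 in cat 30 and 0.397 in cat 31, and 2.16, 3.99 and 7.8 as the lowest, median and highest elsewhere. All 4 libraries of flow cell A were below all 8 others, with a difference in the mean log2 ratio of −2.37 (exact permutation p = 0.00202, adjusted p = 0.0727). Without cats 11 and 31 the difference was −1.30.

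Lactate dehydrogenase is a tetramer of heart-type LDHB and muscle-type LDHA subunits, and hearts are known for LDHB. LDHB had 1072 scaled reads in cat 11, 1543 in cat 23, 2160 in cat 30 and 1052 in cat 31, against 1658 to 3593 with a median of 2042. LDHA ran the other way, with 793, 582, 543 and 1047 in the same cats against 203 to 596 with a median of 362. The ratio of LDHB to LDHA was 1.35 in cat 11 and 1 in cat 31, 2.65 in cat 23 and 3.98 in cat 30, and 3.2 to 17.7 with a median of 6.54 elsewhere, highest in cats 29 and 36. On flow cell A the mean log2 ratio was lower by −1.72 (exact permutation p = 0.0121, adjusted p = 0.145), and by −0.98 without cats 11 and 31 (exact permutation p = 0.156). As single genes neither passed, LDHA at 0.99 ± 0.30 and LDHB at −0.73 ± 0.25 on the log2 scale (limma adjusted p = 0.0645 and 0.0938).

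The carriers behaved likewise. SLC2A4 per SLC2A1 stood at 0.844 in cat 11 and 1.11 in cat 31, 2.7 in cat 23 and 4.71 in cat 30, and at 3.15 to 11.4 with a median of 6.55 elsewhere, a difference of −1.65 in mean log2 ratio (exact permutation p = 0.00808, adjusted p = 0.145) and of −0.73 without cats 11 and 31. ENO3 per ENO1, the muscle and the widespread enolase, was 1.41 and 1.9 in cats 11 and 31, 3.94 and 5.07 in cats 23 and 30, and 3.03 to 10.2 elsewhere, a difference of −0.97 (exact permutation p = 0.0606, adjusted p = 0.436). ENO3 itself differed by −1.01 ± 0.29 and ENO1 by −0.04 ± 0.21 (limma adjusted p = 0.0522 and 0.928).

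**Figure D4:**
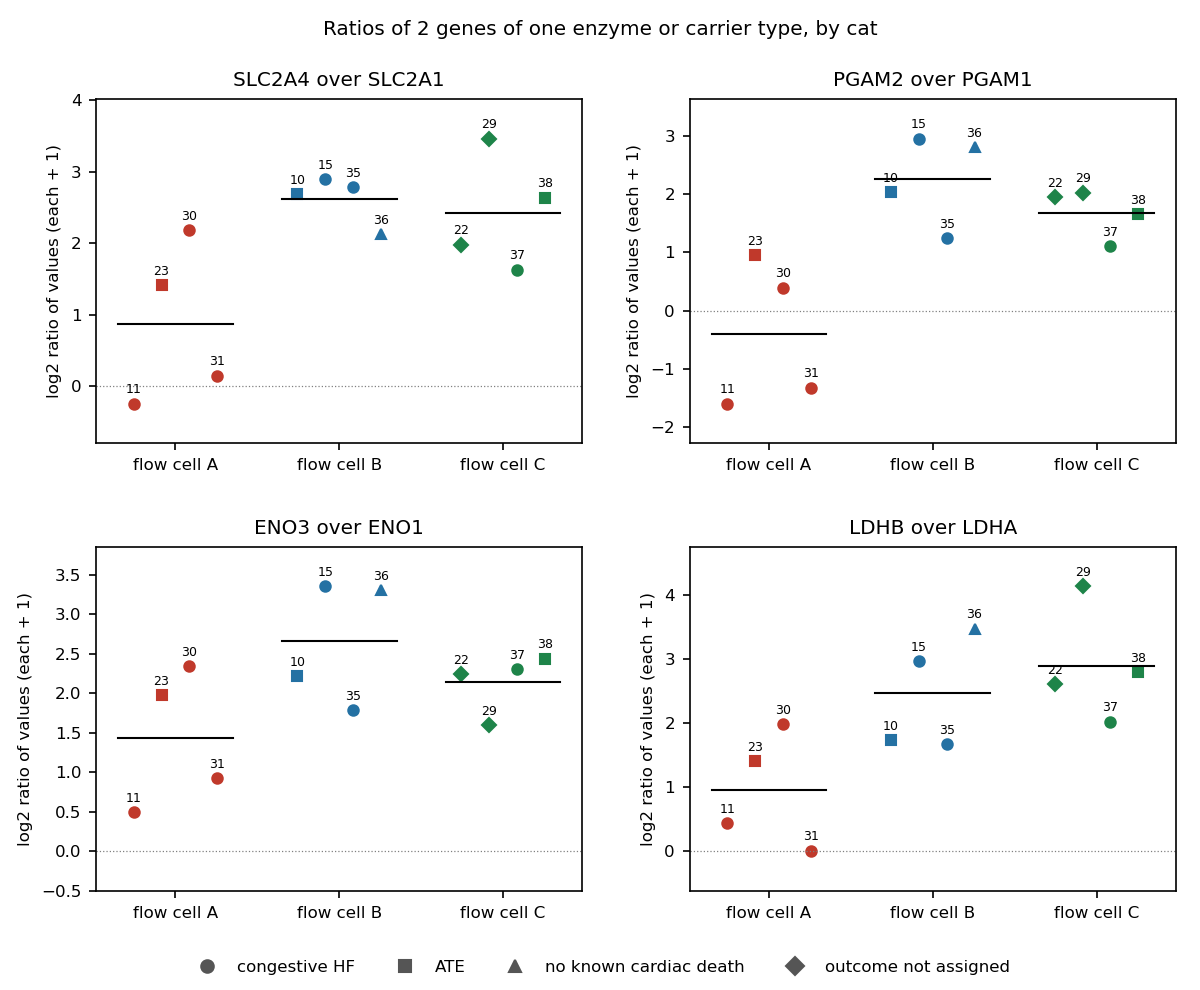
Ratio of 2 genes of one enzyme or carrier type in each library, as log2 of the values plus 1 (y axes), by flow cell (x axes), with cat numbers, outcome by shape and flow cell means as bars. Cats 11 and 31 are the lowest of the 12 libraries in all 4 panels, cat 30 reaches into the range of the other flow cells in all but PGAM2 over PGAM1, and cat 23 in ENO3 over ENO1 alone.

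The other pairs rested on few reads of one partner or moved little. PYGM per PYGB stayed between 2.08 and 5.45 in all 12 libraries, since both genes were low in the same cats. PFKP, the platelet form of phosphofructokinase, had 0 to 26 reads in a library, HK2 0 to 16 and ALDOC 0 to 4. HK1, the hexokinase bound to mitochondria in heart, had 113 to 359 reads, and its scaled reads of 108 to 264 differed between flow cell A and the others by −0.39 ± 0.20 (limma adjusted p = 0.27). ALDOA, the muscle aldolase, went from 2323 in cat 11 to 4764 in cat 29, with a difference of −0.33 ± 0.17 (limma adjusted p = 0.287). SUCLG2, which gives succinyl-CoA synthetase its GTP specificity, had 6 to 57 reads, and SUCLA2 per SUCLG2 ran from 10.6 to 65.2 (difference −0.83, exact permutation p = 0.121). Between flow cells SUCLA2 differed by −0.18 ± 0.18 and SUCLG2 by 0.65 ± 0.40, and PFKP by 1.02 ± 0.80 (limma adjusted p = 0.587, 0.361 and 0.491).

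Between congestive HF and ATE no member was called (limma, 6 against 3 libraries), and 0% of all genes tested were. An unadjusted p under 0.05 was found in 3 members and in 384 of 8715 genes. edgeR's quasi-likelihood test and DESeq2 on the recovered reads also called 0 members. With them 2 and 3 members had an unadjusted p under 0.05, beside 397 and 427 of 8715 genes. The members had a median log2 difference of −0.34, 34 of 41 below 0, beside −0.002 over all genes. Their median was −0.09 without cats 11 and 31, with 28 of 41 below 0. Both of these libraries are in the HF group. With flow cell A as a covariate 0 members were called, and the median was −0.26.

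The smallest p-values were those of DLST, TPI1 and PDHX, all lower in HF. DLST, a subunit of the oxoglutarate dehydrogenase complex, had 148, 181 and 242 scaled reads in the ATE cats 23, 10 and 38 and 81.4 to 176 with a median of 95.9 in HF, a difference of −0.77 ± 0.31. TPI1, triosephosphate isomerase, had 1038, 1143 and 1347 in ATE and 511 to 1225 with a median of 741 in HF, or −0.64 ± 0.28. PDHX, which anchors a subunit of the pyruvate dehydrogenase complex, had 202 to 232 in ATE and 98.5 to 217 with a median of 131 in HF, or −0.64 ± 0.29. For each of these genes limma's adjusted p was 0.96. In all 3 genes the groups overlapped.

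In the other direction the smallest p-values were those of LDHA, PGAM1 and SLC2A1, with differences of 0.39 ± 0.41, 0.24 ± 0.26 and 0.22 ± 0.40 (limma adjusted p = 0.979, 0.979 and 0.985). Their 95% intervals, −0.50 to 1.28 for LDHA, −0.32 to 0.79 for PGAM1 and −0.63 to 1.08 for SLC2A1, include both a fall and a rise. LDHA ranged from 257 to 1047 in HF and from 238 to 596 in ATE. For LDHB the difference was −0.07 ± 0.30 and for SLC2A4 −0.46 ± 0.41. Of the 9 ratios, PYGM per PYGB had the smallest p (exact permutation p = 0.262, the design allowing 0.0119, too few arrangements for a single ratio to pass over 36 tests). The difference in mean log2 ratio was −1.09 for PGAM2 to PGAM1 and −0.68 for SLC2A4 to SLC2A1. Of the 71 other genes of these pathways tested 0 were called. Of the marker lists, smooth muscle and pericyte markers had a median of 0.94 and fibroblast and matrix markers of −0.60, with 0 called.

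Myocardial fibrosis, the share of collagen in stained sections, was known for 8 cats. Spearman's rho with it, with a two-sided exact permutation of cats, passed in 0 of 41 members and 0% of all genes tested. The smallest p that 8 cats allow is 4.96e-05, so a gene standing alone could not pass even at a perfect rank order. The members' median rho was −0.02, with 22 of 41 below 0, beside 0 over all genes. It was 0.14 without cat 11, with 15 of 41 below 0, and −0.18 without cat 30, with 30 of 41 below 0, so its sign rests on single cats. With the total fibrosis share in place of the myocardial one it was 0.095, with 16 of 41 below 0. Fibrosis was not known for cat 31. PFKP had the smallest p, rising with fibrosis at rho = 0.79 (exact permutation p = 0.0254, adjusted p = 1; Pearson's r of log2 values 0.71, exact permutation p = 0.0468). Its reads were 0 in cats 35 and 38, 6 in cat 30, 8 in cats 36 and 23, 14 in cats 10 and 11, and 16 in cat 15. Each value is thus a handful of molecules, and in scaled reads cat 11 lay below cat 36. PFKP passed the filter only through cat 31 and cats 10, 11 and 15, whose fibrosis ranked 5, 6 and 7 of 8. With 10 reads required in 6 libraries it was not tested. In that set 0 of 40 members had an unadjusted p under 0.05, beside 192 of 7186 genes. Leaving out cats 15 and 23, whose fibrosis lay farthest from the median, r of PFKP was 0.67. After centring each flow cell it was 0.74 over 7 cats (permutation within flow cells, exact p = 0.0486). The ratio of PFKM to PFKP fell with fibrosis at rho = −0.79 (exact permutation p = 0.0279, adjusted p = 0.251).

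SUCLG2 and SLC2A1 followed in the positive direction at rho = 0.62 and 0.48 (exact permutation p = 0.115 and 0.243), and DLD, OGDH and CS in the negative at −0.62, −0.55 and −0.52 (exact permutation p = 0.115, 0.171 and 0.197). DLD is the dehydrogenase subunit shared by the pyruvate and oxoglutarate complexes, OGDH the first subunit of the latter, and CS citrate synthase, the entry to the cycle. By Pearson's r these were 0.59 for SUCLG2, 0.22 for SLC2A1, −0.37 for DLD, −0.41 for OGDH and −0.29 for CS, none with an exact permutation p under 0.05. The 5 glycogen members had a median rho of −0.31, all below 0 and 0 called, but r was 0.04 for PYGM, and after centring each flow cell it was above 0 for PYGM, PYGB and GYS1, at 0.27, 0.20 and 0.09. limma slopes on fibrosis called 0 members, without and with flow cell A as a covariate. An unadjusted p under 0.05 was found in 1 member in each fit, beside 230 and 347 of 8715 genes.

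Age was known for 9 cats, and again 0 of 41 members and 0% of all genes tested passed. The smallest p that 9 cats allow is 5.51e-06, so a gene standing alone could pass only at a perfect rank order. The members' median rho was 0.10, with 17 of 41 below 0, beside −0.02 over all genes. Without cats 11 and 31, which were among the youngest, it was −0.36, with 31 of 41 below 0. PHKA1, the muscle form of the alpha subunit of phosphorylase kinase, had the smallest p, at rho = 0.83 (exact permutation p = 0.00827, adjusted p = 0.816; r = 0.82, exact permutation p = 0.00613). In order of age its scaled reads were 46.3 in cat 36, 35.9 in cat 31, 23.6 in cat 11, 75 in cat 38, 50.7 in cat 10, 65.8 in cat 37, 67.2 in cat 23, 102 in cat 15 and 137 in cat 30. The 2 oldest cats had the highest values, and r fell to 0.57 without cats 30 and 15 and to 0.75 without cats 30 and 36, which is as far from the median age as cat 15. After centring each flow cell r was 0.89 (permutation within flow cells, exact p = 0.0243).

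PGK1 and SUCLA2 also had a positive rho with age, 0.63 and 0.60 (exact permutation p = 0.076 and 0.0968). ENO1, SLC2A1 and SUCLG2 had a negative one, −0.67, −0.62 and −0.38 (exact permutation p = 0.0589, 0.0857 and 0.313). Pearson's r was 0.64 for PGK1, 0.51 for SUCLA2, −0.80 for ENO1, −0.57 for SLC2A1 and −0.12 for SUCLG2, with an exact permutation p of 0.00931 for ENO1 and over 0.05 for the rest. ENO1 went from 742 scaled reads in cat 31 and 709 in cat 10 to 407 and 362 in the 2 oldest cats, 15 and 30, and without those 2 cats r was −0.36. limma slopes on age called 0 members, with 2 (ENO1 and PHKA1) and 401 of 8715 genes at an unadjusted p under 0.05. With flow cell A as a covariate 0 members were called, at a smallest limma adjusted p of 0.218. There 10 members and 959 of 8715 genes had an unadjusted p under 0.05. No ratio passed for age (smallest exact permutation p = 0.133).

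**Figure D5:**
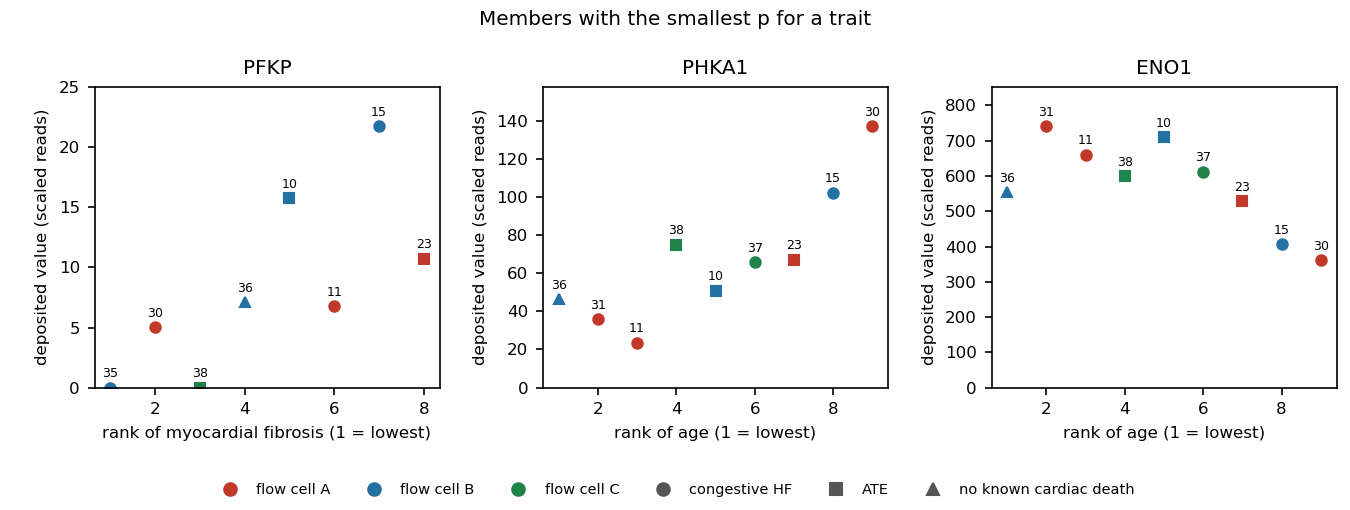
Scaled reads (y axes, from 0) of PFKP against the rank of myocardial fibrosis (8 cats) and of PHKA1 and ENO1 against the rank of age (9 cats), each point 1 cat with its number, coloured by flow cell, with outcome by shape. PFKP and PHKA1 rise with the rank (rho 0.79 and 0.83) and ENO1 falls (rho −0.67), and no adjusted p is under 0.05.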

How the data were processed

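RNA of post mortem left ventricle from 12 cats was selected for mRNA and sequenced directly on nanopore flow cells. The authors basecalled with Guppy, aligned with Minimap2 to felCat9 without a preset for spliced reads, counted with featureCounts and deposited a normalised signal per gene, the reads divided by 1 size factor per library; dividing back gave whole reads for 100% of values (tolerance 1e-06). Columns were matched to cats by their labels. Groups came from labels, with outcome, age and fibrosis joined from the study's cohort list by cat number.

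Tested were the 8715 of 30785 genes that reached 10 reads in 3 or more of the 10 libraries with an outcome. log2(value + 1) was fitted with limma 3.58.1 in R 4.3.3, with Benjamini-Hochberg adjustment and a threshold of 0.05. Traits were tested by Spearman's rho with exact permutation, and ratios by exact permutation. edgeR 4.0.16 and DESeq2 1.42.0 on the recovered reads, other pseudocounts (0.5 and 2), filters, TMM scaling, covariates and left-out libraries were alternatives, and leaving out cats 11 and 31 was chosen after seeing the data. The steps were tested on simulated data. Libraries of cats 22 and 29 entered the flow cell comparison only, apart from the named alternatives.

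Members, lists and the split of flow cell A against the others were chosen with earlier results of these data known. Named are the called members, up to 10 by p, or where fewer than 3 pass the 3 with the smallest p in each direction, both genes of each pair, and called genes of the other lists; further members are named as examples chosen after their values were seen. With 1 library per cat, p-values measure the spread between these libraries, and depth covers counting error only.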

Additional observations from a re-analysis of the deposited data

Results flagged for a closer look

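Within flow cells of 4 libraries, 144 groups of values were searched for 1 library far from the others, and 5 had one, where chance gives about 1 in 20. CS, citrate synthase, stood at 574 scaled reads in cat 35 against 458 to 466 in the other libraries of flow cell B. LDHB stood at 3256 in cat 36 against 1882 to 2025 on flow cell B. PFKM stood at 1202 in cat 38 against 931 to 951 in the other libraries of flow cell C, and TPI1 at 2454 in cat 29 against 1225 to 1347 there. The log2 ratio of ALDOA to ALDOC was 9.22 in cat 15 and 10.0 to 10.2 in the rest of flow cell B, with at most 4 reads of ALDOC in any library.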

How the results depend on the processing

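Of the results between flow cell A and the others, the count of members called lower was 8, and it was 2 against flow cell B alone, 0 against flow cell C alone, 0 within the HF cats, 0 without cats 11 and 31 and 13 by DESeq2, which also called 1 member higher (LDHA). The genes called over all were 183, 67, 4, 0 and 829 in the same order, beside 446. The members' median, −0.41 with all libraries, was −0.36, −0.51, −0.48 and −0.24 against B, against C, within the HF cats and without cats 11 and 31. With each library left out in turn, 0 to 11 members were lower, 0 to 1 higher, and 51 to 501 genes were called in all, the fewest without cat 11. Between HF and ATE leaving out each library gave 0 to 1 genes. The direction turned for SLC2A1 without cats 11 and 31, to −0.0069 between flow cells and −0.16 between HF and ATE. ENO1 between flow cells was 0.072 against flow cell B alone, 0.19 within the HF cats and −0.18 to 0.16 with 1 library left out. LDHA between HF and ATE ran from −0.046 to 0.62 with 1 library left out, and the slope of SUCLG2 on age was 0.0061 with cats 22 and 29 entered. The cause was not tested. ENO3 and MDH1 passed with 10 reads in 6 libraries and by DESeq2, which also called PHKG1, IDH3B and MDH2 lower. No paired analysis was possible because the groups share no replicate numbers. Depth limits ALDOC, HK2, PFKP, PHKG1 and SUCLG2 most.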

Other observations

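Regulators of these pathways, named after their values were seen, also varied between cats. PDK4, the kinase that switches pyruvate dehydrogenase off in fasting and under fatty acid use, had 354 scaled reads in cat 11, 1124 in cat 23, 1786 in cat 30 and 1287 in cat 31, and 571 to 3138 elsewhere, the highest in cat 29. PPARGC1A, a coactivator of mitochondrial genes, was at 7.72 in cat 11, 8.77 in cat 31, 32.2 in cat 23 and 33.7 in cat 30, and at 17.7 to 211 elsewhere, highest in cats 22 and 29. HIF1A, the oxygen-sensitive activator of glycolytic genes, lay between 85.0 and 130 on flow cell A and between 44.1 and 113 elsewhere, and the groups overlapped. None of the 3 was called between flow cells. All 8 tested genes of pyruvate entry had a positive rho with age, with a median of 0.58 over 9 cats, and 0 were called. Over all genes 4061 of 8715 had a positive rho, and this list was not examined without cats 11 and 31.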
